A study of Canis lupus familiaris with 60 samples.

Results

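The genes TLR2, TLR4 and CLEC7A encode 3 receptors that recognize molecules of microbes and mites, and their mRNA was followed in dog skin after a patch test with house dust mite paste. They were taken by the transcript identifiers printed in the array files, which are NM_001005264 for TLR2, NM_001002950 for TLR4 and ENSCAFT00000021418 for CLEC7A. These 3 identifiers stand among 54600 on the array and are measured by 5 of its 60068 probes, in 15 of its 61657 spots. CLEC7A has 1 probe, whereas TLR2 and TLR4 have 2 each. TLR2 and TLR4 were found under these identifiers in a RefSeq table, while the CLEC7A transcript was named only by the annotation of the study. That annotation covers genes which the study selected on these same arrays for their 24 hr difference, and it holds TLR2 as well as CLEC7A. Where an identifier was named by both sources, the symbols were the same for 47 of 55, and most of the others were older or human symbols of the same gene but not all, so the name CLEC7A rests on a single source that is not free of error.

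TLR2 and TLR4 belong to the Toll-like receptors, membrane proteins of macrophages, neutrophils, dendritic cells and also keratinocytes that signal through the adaptor MYD88 to the transcription factor NF-kB. TLR2 pairs with TLR1 or TLR6 and binds bacterial lipoproteins, whereas TLR4 binds lipopolysaccharide together with CD14 and the protein MD-2. CLEC7A, also called dectin-1, is a C-type lectin of myeloid cells that binds beta-glucans of fungal cell walls and signals through SYK and CARD9. House dust mite material carries bacterial lipopolysaccharide, chitin and glucans beside the mite's own allergens, so all 3 receptors may meet ligands in a mite patch.

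Skin was taken from 12 Beagle dogs of 2 to 3 years. The 6 sensitized dogs (4 males, 2 females) had been exposed repeatedly to Dermatophagoides farinae through the skin on a fixed schedule and their reaction to it was then tested, so they are an experimental model and not patients with naturally occurring disease. The 6 nonsensitized dogs (2 males, 4 females) had no such history, and sex is therefore not balanced between the groups. The coat of the chest was clipped 4 days earlier, and each dog gave 5 punch biopsies of 8 mm, namely untreated skin at 0 hr and, at 6 hr and 24 hr, a site under 75 mg of mite paste (allergen) and a site under 50 µl of saline. Each of the 60 biopsies was measured on its own one-colour array, which gives 10 groups of 6 arrays. Specimen 14, the 24 hr allergen site of sensitized dog 2839, came from degraded RNA and was left out, so 59 arrays were fitted and that group had 5.

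Levels are given as log2 of the processed spot intensity after variance stabilization, and a difference of 1 on this scale is a doubling for bright probes and understates the change of dim ones. Differences were tested with limma in 1 fit of the 10 group means, and p-values were adjusted (Benjamini-Hochberg) over all 45972 probes that passed a filter on dim spots. A probe was called when its adjusted p was below 0.05 and its difference at least 1.5-fold. The median processed signal per array lay between 81.7 and 146.12, and the share of spots detected well above background between 68.85% and 80.15%. The 24 hr arrays lie on slides 1, 2 and 3 but for 1 array on slide 8. The 6 hr and untreated arrays lie on slides 4 to 8, so time and slide can hardly be told apart. Allergen and saline sites of both kinds of dogs share slides 2 and 3. The kinds of dogs are not balanced over the slides, however. Slide 4 held only nonsensitized arrays and slide 1 no allergen array of sensitized dogs, so comparisons between the kinds of dogs also compare slides in part.

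All 5 probes of the receptors passed the filter. The TLR4 probe had a mean processed signal of 578 and the TLR2 probe of 246, and both were well above background on 59 of 59 arrays. The CLEC7A probe was dim, with a mean of 29.4, and was well above background on 58 of 59 arrays. For TLR2 and TLR4 the brighter probe is reported and the other one serves as a second reading of the same transcript. The second TLR2 probe had a mean signal of 25.9 and was above background on 45 of 59 arrays, while the second TLR4 probe had a mean of 80.8 and was above background on all 59. Intensities of different probes cannot be compared as amounts of mRNA. The second TLR4 probe was printed in 11 spots, whose SD within an array had a median of 0.09 (0.04 to 0.17), against an SD between dogs of a group of 0.28.

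**Figure D1:**
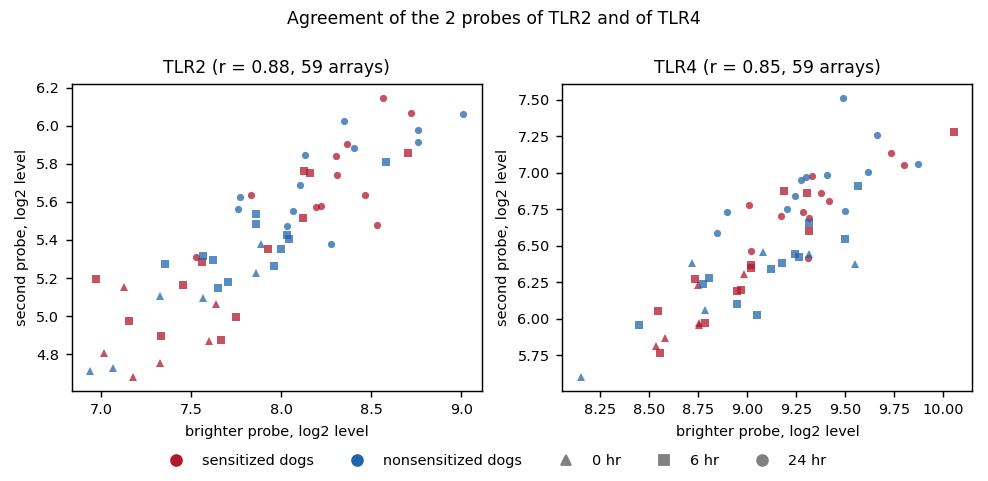
Log2 level of the second probe (vertical axis) against the brighter probe (horizontal axis) of TLR2 and of TLR4 on 59 arrays. Colours mark sensitized and nonsensitized dogs and symbols the time point. The 2 probes rose and fell together in both genes, with r = 0.88 for TLR2 and r = 0.85 for TLR4.

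Across the 59 arrays the 2 probes of TLR2 correlated with r = 0.88 and the 2 probes of TLR4 with r = 0.85. After each group's mean was subtracted, r was 0.69 and 0.78. These values describe arrays of 12 dogs that share a scaling, and no test was attached to them.

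TLR2 had its lowest mean in untreated skin of sensitized dogs, 7.31 ± 0.26 (SD, n = 6), and its highest in 24 hr saline-treated skin of nonsensitized dogs, 8.57 ± 0.33 (SD, n = 6). Between them, from low to high, stood the sensitized 6 hr saline sites (7.44 ± 0.41), nonsensitized untreated skin (7.44 ± 0.40), nonsensitized 6 hr saline (7.76 ± 0.27), nonsensitized 6 hr allergen (7.95 ± 0.35), nonsensitized 24 hr allergen (8.00 ± 0.20), sensitized 6 hr allergen (8.05 ± 0.37), sensitized 24 hr saline (8.11 ± 0.36) and sensitized 24 hr allergen sites (8.47 ± 0.20, n = 5). The groups spanned 1.26, and the step between neighbours in this order exceeded the pooled SD of 0.33 only between the sensitized 24 hr saline and 24 hr allergen sites, with a step of 0.36. No neighbouring groups had ranges that lay apart. From group to group, the order was thus within the spread between single dogs except at that step. This spread is not the error of a mean, so it does not show which steps are real. By the second TLR2 probe the same step was 0.19, under its pooled SD of 0.24.

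TLR4 followed a similar order over a narrower span of 0.75. Its mean was lowest in untreated skin of sensitized dogs, 8.72 ± 0.16 (SD, n = 6), and highest in 24 hr saline-treated skin of nonsensitized dogs, 9.47 ± 0.34 (SD, n = 6). No step between neighbours exceeded its pooled SD of 0.32. Untreated skin of the nonsensitized dogs had the widest spread, 8.93 ± 0.50 (SD, n = 6), with dog 2716 at 8.15 and dog 2802 at 9.55.

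CLEC7A spanned 0.73, from 5.28 ± 0.22 (SD, n = 6) in untreated skin of nonsensitized dogs to 6.01 ± 0.16 (SD, n = 5) in 24 hr allergen-treated skin of sensitized dogs. Here the 24 hr allergen sites of sensitized dogs, not the saline sites of nonsensitized dogs, stood at the top. The gap to the next group, the 24 hr saline sites of nonsensitized dogs (5.77 ± 0.27), was 0.24 and was the only step larger than the pooled SD of 0.22.

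**Figure D2:**
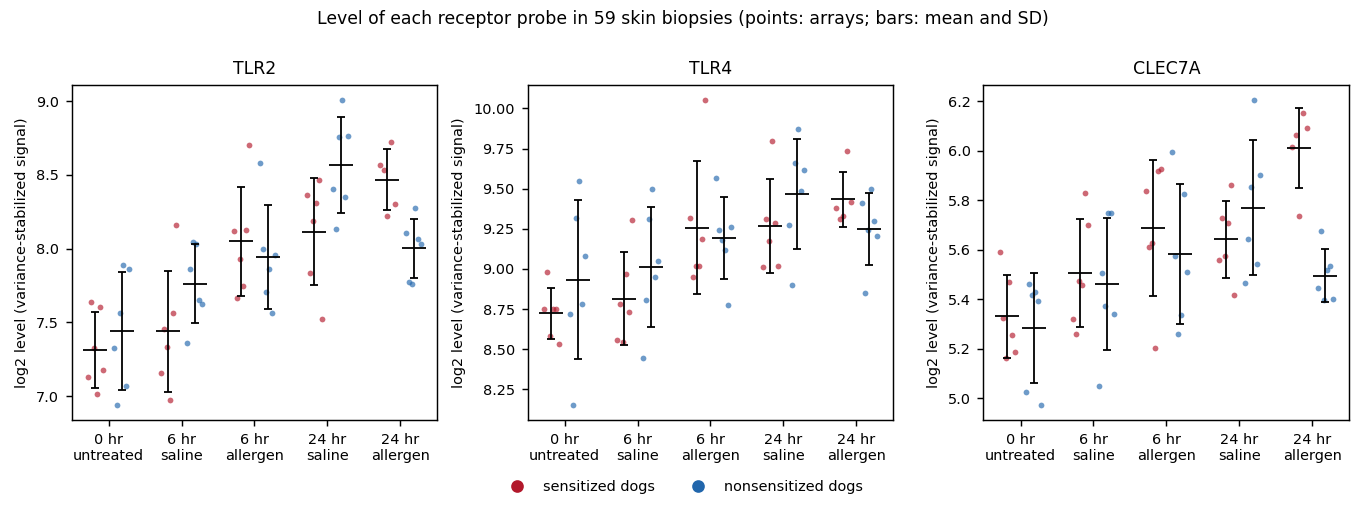
Log2 level of TLR2, TLR4 and CLEC7A (vertical axes, reported probe) in the 10 groups. Each point is an array and the bars give mean and SD over dogs (n = 6, or 5 for 24 hr allergen in sensitized dogs). In nonsensitized dogs the TLR2 saline sites at 24 hr (mean 8.57) lie above the allergen sites (mean 8.00), and in sensitized dogs the order is the other way round (8.11 and 8.47).

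Untreated skin was compared first, to see whether the receptors differed between the dogs before any patch. TLR2 had a lowest, median and highest level of 7.01, 7.25 and 7.64 in sensitized dogs and of 6.94, 7.45 and 7.89 in nonsensitized dogs. The ranges of the 2 kinds of dogs overlapped for TLR2, TLR4 and CLEC7A. None of the 5 probes was called by limma and none had an unadjusted p below 0.05, where 0.00218% of all probes were called. The differences, sensitized minus nonsensitized, lay between -0.21 and 0.05.

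The early response is the difference between the allergen and the saline site of the same dogs at 6 hr. In sensitized dogs, TLR2 at the saline sites had a lowest, median and highest level of 6.97, 7.39 and 8.16, and at the allergen sites of 7.66, 8.03 and 8.71. The groups overlapped, but within each of the 6 dogs the allergen site was the higher one, by 0.21 to 0.97. The fitted difference was 0.61 (SE 0.18), or 1.53-fold, with an adjusted p of 0.124 by limma, and it was not called. The saline sites of nonsensitized dogs had a lowest, median and highest TLR2 level of 7.36, 7.76 and 8.04 and the allergen sites of 7.57, 7.91 and 8.58. Only 3 of these 6 dogs were higher at the allergen site, and the difference was 0.18 (SE 0.18; adjusted p by limma 0.97). The highest value, 1.22, was that of dog 2704, and without this dog the difference was -0.02. The allergen and saline arrays of dog 2704 lay on different slides. Within slide 4 the nonsensitized difference was 0.05. Within slides 5 and 6 the sensitized difference was 0.64 and 0.82.

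TLR4 at 6 hr had a lowest, median and highest level of 8.54, 8.76 and 9.31 at the saline sites and of 8.95, 9.10 and 10.05 at the allergen sites of sensitized dogs. The allergen site was higher in 6 of 6 dogs, although the ranges overlapped. The difference was 0.44 (SE 0.18, 1.36-fold) with an adjusted p of 0.363 by limma, and the second probe gave 0.43 (SE 0.16). For TLR4 in nonsensitized dogs the difference was 0.18 (SE 0.18), higher in 3 of 6 dogs, and without dog 2704 it was -0.01. The second TLR2 probe gave an early difference of 0.18 (SE 0.14) in sensitized dogs. It was well above background on only 3 of 6 saline and 5 of 6 allergen arrays there, so its size cannot be set against that of the first probe.

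For CLEC7A the 6 hr sites lay closer together. Its lowest, median and highest level was 5.26, 5.47 and 5.83 at the saline sites and 5.20, 5.73 and 5.93 at the allergen sites of sensitized dogs, where 5 of 6 dogs were higher under allergen. The difference was 0.18 (SE 0.13) in sensitized and 0.12 (SE 0.13) in nonsensitized dogs, and the latter was -0.04 without dog 2704. No probe of the 3 receptors was called at 6 hr by limma in sensitized dogs, where 0.409% of all probes were called and 3 of the 5 receptor probes had an unadjusted p below 0.05. None was called in nonsensitized dogs either, where 0.0348% of all probes were called and none of the 5 had an unadjusted p below 0.05.

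The interaction, which is the allergen minus saline difference in sensitized dogs less that in nonsensitized dogs, was 0.43 (95% interval -0.10 to 0.95) for TLR2 at 6 hr. It was 0.26 (-0.25 to 0.78) for TLR4 and 0.06 (-0.30 to 0.42) for CLEC7A, which was -0.01 with scaling to the 75th percentile. No receptor probe was called for it by limma and none had an unadjusted p below 0.05, and among all probes 0.0% were called. The intervals still hold differences of nearly 2-fold for TLR2, so a larger early response in sensitized dogs was neither found nor shown to be absent.

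At 24 hr the differences between allergen and saline sites had opposite signs in the 2 kinds of dogs, and none was called in the unpaired fit. In sensitized dogs the TLR2 allergen sites had the levels 8.22, 8.30, 8.53, 8.57 and 8.72, and the saline sites a lowest, median and highest level of 7.52, 8.25 and 8.47. The allergen site was higher in 4 of the 5 dogs with both arrays, and the groups overlapped. The fitted difference was 0.35 (SE 0.19), adjusted p by limma 0.513. In nonsensitized dogs the lowest, median and highest TLR2 level was 8.14, 8.58 and 9.01 under saline and 7.76, 8.05 and 8.27 under allergen. Here the allergen site was the lower one in 6 of 6 dogs, by 0.29 to 1.00, and the groups overlapped only between 8.14 and 8.27. The difference was -0.57 (SE 0.18), or 1.48-fold, with an adjusted p of 0.11 by limma.

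The TLR2 interaction at 24 hr was therefore 0.92 (SE 0.27, 95% interval 0.39 to 1.46), a 1.90-fold difference between the responses, with an adjusted p of 0.0639 by limma. It was not called in the unpaired fit. With the dog as a block in the limma fit it was 0.91 with an adjusted p of 0.0211, which passed. The second TLR2 probe gave 0.59 (SE 0.20, adjusted p by limma 0.112), and 0.57 with an adjusted p of 0.0517 with the dog as a block. Within the slides that held all 4 groups, it was 0.69 on slide 2 and 1.17 on slide 3 by the first probe. These values rest on single arrays, since slide 2 held 1 allergen array of each kind of dogs and slide 3 held 1 allergen and 1 saline array of nonsensitized dogs.

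TLR4 kept the same signs at 24 hr with smaller differences. Under saline its lowest, median and highest level was 9.01, 9.23 and 9.80 in sensitized and 8.90, 9.55 and 9.87 in nonsensitized dogs. Under allergen the sensitized dogs had the levels 9.31, 9.33, 9.38, 9.42 and 9.73 and the nonsensitized dogs a lowest, median and highest level of 8.85, 9.27 and 9.50. All 4 groups overlapped. The allergen minus saline difference was 0.17 (SE 0.19) in sensitized dogs, higher in 4 of 5, and -0.22 (SE 0.18) in nonsensitized dogs. The interaction was 0.38 (SE 0.26, 95% interval -0.14 to 0.91, adjusted p by limma 0.572), and the second probe gave 0.38 (SE 0.23). On slides 2 and 3, from the same few arrays, it was 0.14 and 0.51.

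CLEC7A at the 24 hr allergen sites of sensitized dogs had the levels 5.74, 6.01, 6.06, 6.09 and 6.15, and at their saline sites a lowest, median and highest level of 5.42, 5.64 and 5.86. The allergen site was higher in 5 of 5 dogs, by 0.03 to 0.67, and only dog 2841 lay within the range of the saline sites. In nonsensitized dogs the levels were 5.47, 5.75 and 6.21 under saline and 5.40, 5.48 and 5.68 under allergen, lower under allergen in 5 of 6 dogs. The differences were 0.37 (SE 0.13, adjusted p by limma 0.231) in sensitized and -0.27 (SE 0.13, adjusted p by limma 0.367) in nonsensitized dogs. The interaction was 0.64 (SE 0.18, 95% interval 0.27 to 1.01), or 1.56-fold, with an adjusted p of 0.0623 by limma. With the dog as a block it was 0.63 with an adjusted p of 0.0249 by limma, which passed. Over 10 other settings it ranged from 0.38 with normexp to 1.00 without a filter on dim probes. On slides 2 and 3, from the same few arrays, it was 0.30 and 1.11.

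None of the 5 receptor probes was called at 24 hr between allergen and saline by limma in sensitized dogs (1 of 5 with an unadjusted p below 0.05, 0.27% of all probes called) or in nonsensitized dogs (3 of 5 with an unadjusted p below 0.05, 0.74% of all probes called). For the interaction none was called in the unpaired fit, against 0.972% of all probes, and 3 of 5 had an unadjusted p below 0.05. With the dog as a block the reported probes of TLR2 and CLEC7A were called, against 3.46% of all probes. Since the study had selected both genes for this difference on these arrays, these values describe the selected genes and are no independent evidence of their direction.

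**Figure D3:**
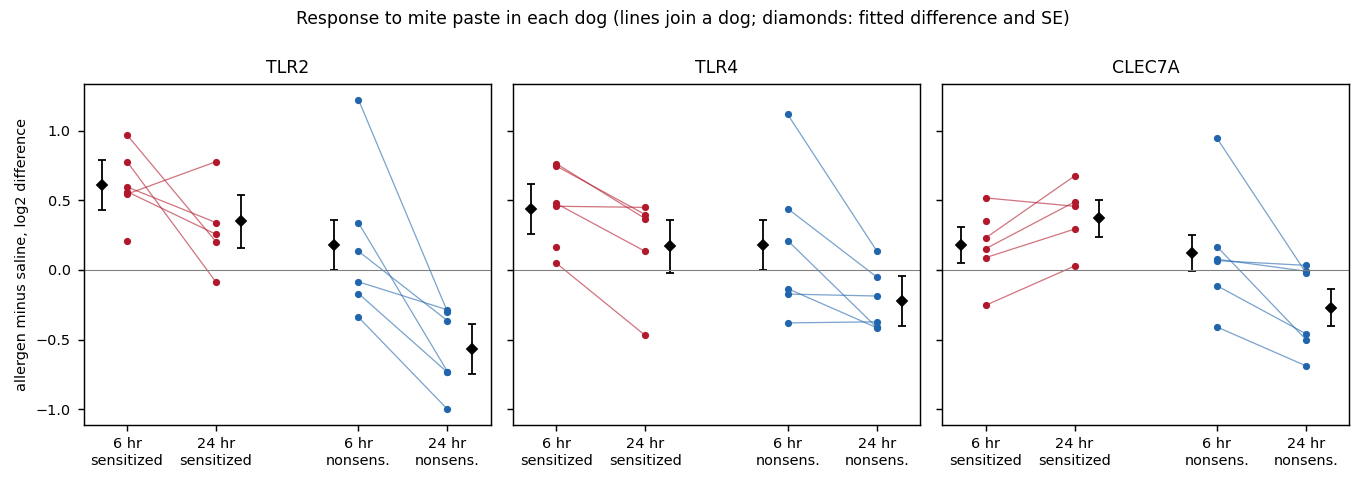
Allergen minus saline difference in log2 level within each dog (points) at 6 hr and 24 hr for TLR2, TLR4 and CLEC7A, with the fitted difference and its SE (diamonds). At 24 hr the TLR2 points of all 6 nonsensitized dogs lie below 0 (fitted -0.57), whereas 4 of 5 sensitized dogs lie above 0 (fitted 0.35).

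The sites under the same patch were also compared directly between the dogs at 24 hr. Of the nonsensitized allergen arrays 4 lay on slide 1, which held no sensitized allergen array. The comparisons under allergen are therefore in part between slides. Under allergen, CLEC7A ranged from 5.74 to 6.15 in sensitized dogs and from 5.40 to 5.68 in nonsensitized dogs, so the groups did not overlap. The difference was 0.52 (SE 0.13, adjusted p by limma 0.0045), but at 1.43-fold it stayed under the limit of 1.5-fold. TLR2 under allergen was higher in sensitized dogs by 0.47 (SE 0.19, adjusted p by limma 0.0701), with ranges of 8.22 to 8.72 and 7.76 to 8.27 that overlapped slightly. Under saline TLR2 was lower in sensitized dogs, with a difference of -0.46 (SE 0.18, adjusted p by limma 0.124), which is nearly as large as the difference under allergen and of opposite sign. No receptor probe was called under allergen, where 2 of 5 had an unadjusted p below 0.05 and 6.73% of all probes were called by limma. None was called under saline, where 3 of 5 had an unadjusted p below 0.05 and 2.32% of all probes were called by limma.

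The receptors were then compared with untreated skin of the same group. These comparisons share the untreated arrays, and they compare slides as well as times. At 24 hr all 3 receptors were higher at the allergen sites of sensitized dogs. TLR2 had ranged from 7.01 to 7.64 in untreated skin, so every 24 hr allergen site, at 8.22 or more, lay above every untreated site, and the difference was 1.15 (SE 0.19, 2.22-fold, adjusted p by limma 6.88e-06). TLR4 rose by 0.71 (SE 0.19, 1.63-fold, adjusted p by limma 0.00262), again without overlap between untreated sites of 8.53 to 8.98 and allergen sites of 9.31 to 9.73. With the slide as a fixed block the TLR4 difference was 0.54 and the call was lost (adjusted p by limma 0.281). In that fit only 1 array, on slide 8, links the slides of 24 hr sites to those of untreated sites. It can therefore hardly separate slide from time. CLEC7A rose by 0.68 (SE 0.13, 1.60-fold, adjusted p by limma 7.33e-05), from 5.16 to 5.59 in untreated skin to 5.74 or more, but with normexp the rise was 0.40, under 1.5-fold. All 5 probes were called, against 7.05% of all probes called higher in this comparison. The second TLR2 probe among them was well above background on only 3 of 6 untreated arrays of each kind of dogs. It passed the filter only through groups in which it was higher, so its calls against untreated skin are no support.

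At the 24 hr allergen sites of nonsensitized dogs, 1 of the 5 probes was called. TLR2 differed from untreated skin by 0.56 (SE 0.18, adjusted p by limma 0.0108), which is just under 1.5-fold. It passed that limit in 5 of 20 other settings and fits without 1 dog, at up to 0.73 without a filter on dim probes. TLR4 differed by 0.32 (SE 0.18) and CLEC7A by 0.21 (SE 0.13), which turned to -0.02 with scaling to the 75th percentile. The probe called was the second one of TLR4, with 0.59 (SE 0.16, adjusted p by limma 0.00215), against 4.92% of all probes called higher.

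TLR2 also rose at the 24 hr saline sites of both kinds of dogs. In nonsensitized dogs TLR2 had a lowest, median and highest level of 6.94, 7.45 and 7.89 in untreated skin, all below the lowest 24 hr saline site of 8.14. The rise was 1.13 (SE 0.18, 2.19-fold, adjusted p by limma 1.35e-06), and it was present in 6 of 6 dogs with 0.90 to 1.28. In sensitized dogs TLR2 at the 24 hr saline sites rose by 0.80 (SE 0.18, adjusted p by limma 0.000794), with a single dog, 2855, within the untreated range. With the slide as a fixed block these differences were 1.15 and 0.85, and both calls were lost (adjusted p by limma 0.134 and 0.203). As for TLR4 above, that fit links the slides of 24 hr and untreated sites through only 1 array. It can therefore hardly separate slide from time. In each kind of dogs 3 of 5 probes were called at the 24 hr saline sites, namely both of TLR2 and the second of TLR4, against 3.88% of all probes called higher in sensitized and 9.05% in nonsensitized dogs. As above, the call of the second TLR2 probe against untreated skin is no support. CLEC7A under saline at 24 hr differed from untreated skin by 0.31 (SE 0.13) in sensitized and by 0.49 (SE 0.13) in nonsensitized dogs, below 1.5-fold in both.

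At the 6 hr saline sites no receptor probe was called against untreated skin by limma in sensitized dogs (0.107% of all probes called higher, 1 of 5 receptor probes with an unadjusted p below 0.05) or in nonsensitized dogs (0.209% called higher, 1 of 5 with an unadjusted p below 0.05), and the differences lay between 0.04 and 0.32, with those of CLEC7A turning to -0.05 in sensitized and -0.01 in nonsensitized dogs with scaling to the 75th percentile. Under allergen at 6 hr, TLR2 of sensitized dogs had already risen by 0.73 (SE 0.18, 1.66-fold, adjusted p by limma 0.00463), with 7.66 as its lowest level against 7.64 as the highest in untreated skin. With the slide as a fixed block it was 0.83 and not called (adjusted p by limma 0.0812), and without dog 2855 it was 0.58, under 1.5-fold. The second TLR4 probe was called as well, with 0.59 (SE 0.16), whereas the reported TLR4 probe, at 0.53 (SE 0.18), was called in 4 of 20 other settings and fits without 1 dog. In this comparison 2 of 5 probes were called against 2.03% of all probes called higher. In nonsensitized dogs the 6 hr allergen sites differed from untreated skin by 0.50 (SE 0.18) for TLR2, and none of the 5 probes was called by limma, with 3 at an unadjusted p below 0.05, against 0.948% of all probes called higher.

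From 6 hr to 24 hr the saline sites gained TLR2 in both kinds of dogs, by 0.67 (SE 0.18, adjusted p by limma 0.0135) in sensitized and by 0.81 (SE 0.18, adjusted p by limma 0.000707) in nonsensitized dogs. Sensitized dog 2855 went the other way, from 8.16 to 7.52. The 6 hr and 24 hr saline arrays shared no slide. In sensitized dogs 1 of 5 probes was called, against 1.56% of all probes called higher, and in nonsensitized dogs 3 of 5, against 4.04%. Among the latter was the second TLR2 probe, well above background on 4 of 6 saline arrays at 6 hr, so its call is no support. At the allergen sites no receptor probe was called by limma between 6 hr and 24 hr. The TLR2 difference there was 0.42 (SE 0.19) in sensitized dogs, where 3 of 5 probes had an unadjusted p below 0.05 and 1.39% of all probes were called higher. It was 0.06 (SE 0.18) in nonsensitized dogs, where 1 of 5 probes had an unadjusted p below 0.05 and 1.96% of all probes were called higher.

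**Figure D4:**
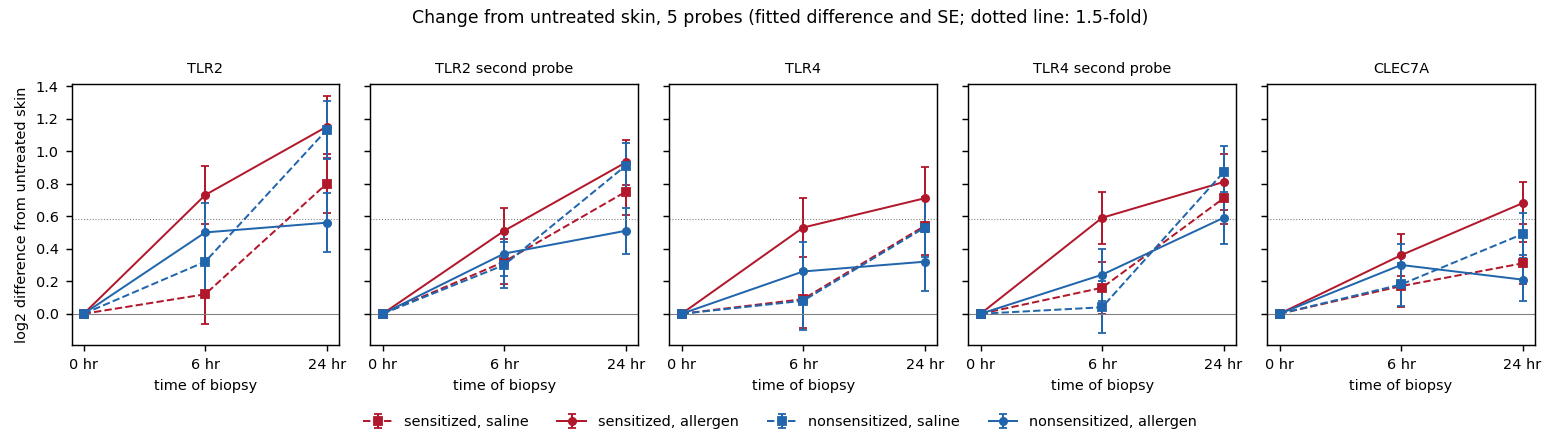
Change in log2 level from untreated skin at 6 hr and 24 hr for the 5 receptor probes, by group of dogs and patch, with the dotted line at 1.5-fold. TLR2 at the 24 hr allergen sites of sensitized dogs (1.15) and at the 24 hr saline sites of nonsensitized dogs (1.13) stood far above that line, while its 24 hr allergen sites of nonsensitized dogs (0.56) stood just under it.

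The surroundings of the receptors were described with lists of 85 genes, of which 35 had an identifier on the array that could be named and 32 passed the filter. Of these 32, 23 were named through RefSeq and 9 only through the study's annotation, which was selected on these arrays and gives no independent evidence of direction. The adaptors MYD88, SYK and CARD9 and the TLR4 partner LY96 (MD-2) had no matched identifier and were not analysed here. At 6 hr in sensitized dogs 9 of the 32 genes rose under allergen and none fell (5 of 23 and 4 of 9 by source of the name), where 0.409% of all probes were called in either direction, with a median of 0.51 against -0.002 over all probes. None of the 32 was called by limma at 6 hr in nonsensitized dogs (median 0.22, 7 with an unadjusted p below 0.05), where 0.0348% of all probes were called. None was called for the 6 hr interaction (median 0.32, 7 such genes), where 0.0% of all probes were called. At 24 hr in sensitized dogs none was called either (median 0.34, 12 such genes), against 0.27% of all probes. With no probe called for the 6 hr interaction, these counts cannot show whether the early response of the list differed between the 2 kinds of dogs. At 24 hr in nonsensitized dogs 6 of 32 fell and none rose, where 0.74% of all probes were called, with a median of -0.38 against 0.009. The 24 hr interaction was called for 8 of 32 genes, all higher in sensitized dogs (3 of 23 and 5 of 9), where 0.972% of all probes were called, with a median of 0.90 against -0.009. One of the 8 was CCL3, which passed the filter only through the group in which it was highest, the 24 hr allergen sites of sensitized dogs. Without CCL3 the count was 7 of 31 genes (4 of 8 among those named by the study's annotation), with a median of 0.92.

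Among other Toll-like receptors, 4 of 8 passed the filter. None of them was called by limma in any allergen against saline comparison or interaction, where between 0.0% and 0.972% of all probes were called. TLR1, the partner of TLR2, had a 24 hr interaction of 0.79 (SE 0.33, adjusted p by limma 0.223), and TLR10 one of 0.59 (SE 0.19, adjusted p by limma 0.094). TLR7 and TLR9, receptors of endosomes that bind nucleic acids, had interactions of 0.08 each. CD14 and CD180 were named only by the annotation that the study selected for the 24 hr difference, so their 24 hr values are no independent evidence. At the cell surface, CD14, which hands lipopolysaccharide to TLR4, rose at 6 hr in sensitized dogs by 1.11 (SE 0.24, adjusted p by limma 0.0164), and its 24 hr interaction of 1.28 had an adjusted p of 0.0504 by limma. CD180, a Toll-like relative of B cells and myeloid cells, rose by 0.87 (SE 0.18, adjusted p by limma 0.00882) at 6 hr in sensitized dogs and fell by 0.85 (SE 0.18, adjusted p by limma 0.00485) at 24 hr in nonsensitized dogs. The 24 hr interaction of CD180, 1.17 (SE 0.26, adjusted p by limma 0.0159), was called. CD36, a scavenger receptor that assists TLR2, was not called, and its interaction was -0.39 (SE 0.35), opposite in sign to that of TLR2.

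Among 4 other measured pattern receptors the 24 hr interaction was called for 3, against 0.972% of all probes. MRC1 and NLRP3, as well as VAV1 and CHI3L1, were named only by the annotation that the study selected for this difference, so their calls are no independent evidence. The mannose receptor MRC1 had the value 1.60 (SE 0.32, adjusted p by limma 0.0084) and fell by 0.97 (SE 0.22) at 24 hr in nonsensitized dogs. The lectin CD209 had 1.28 (SE 0.34, adjusted p by limma 0.04) and NLRP3, the sensor of an inflammasome, 1.14 (SE 0.30, adjusted p by limma 0.0395). VAV1, an exchange factor downstream of dectin-1 and of other receptors, had 1.07 (SE 0.29, adjusted p by limma 0.0497), and CHI3L1, a chitin-binding protein of macrophages and neutrophils, rose at 6 hr in sensitized dogs by 1.72 (SE 0.43, adjusted p by limma 0.0415).

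Of 16 measured genes that these receptors are known to induce, 6 rose at 6 hr under allergen in sensitized dogs and none fell, against 0.409% of all probes called. The chemokine CCL2, which attracts monocytes, rose by 2.85 (SE 0.42, adjusted p by limma 6.69e-05), CCL20 by 2.75 (SE 0.49, adjusted p by limma 0.00178), the prostaglandin synthase PTGS2 by 2.50 (SE 0.44), the adhesion molecule ICAM1 by 1.80 (SE 0.28) and the cytokine inhibitor SOCS3 by 1.41 (SE 0.26). IL6 was detected well above background on none of the 6 saline arrays but on each of the 6 allergen arrays at 6 hr in these dogs, and it was at least 5.04-fold higher under allergen (adjusted p by limma 0.00363). For these 6 genes the 6 hr differences of nonsensitized dogs had the same sign, for example 1.28 for CCL20 and 1.13 for PTGS2, and were not called. The bound for IL6 sets the allergen mean against the lowest signal well above background on the saline arrays.

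At 24 hr in nonsensitized dogs CCL2 fell by 2.20 (SE 0.42, adjusted p by limma 0.00145), SOCS3 by 1.31 (SE 0.26) and ICAM1 by 1.15 (SE 0.28) at the allergen against the saline sites. SOCS3 had its name only from the annotation that the study selected for the 24 hr difference. IL6 was above background on 6 of 6 saline but on 1 of 6 allergen arrays of these dogs. The 24 hr interaction was called for CCL2 with 2.35 (SE 0.60, adjusted p by limma 0.0358), against 0.972% of all probes. It was also called for IL6 (adjusted p by limma 0.0409) and for the dim CCL3, for which no size is given, because most allergen arrays of nonsensitized dogs did not measure either gene above background. At the 24 hr allergen sites CCL3 was above background in 5 of 5 sensitized dogs but only in 2 of 6 nonsensitized ones, and it was named only by the study's annotation.

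**Figure D5:**
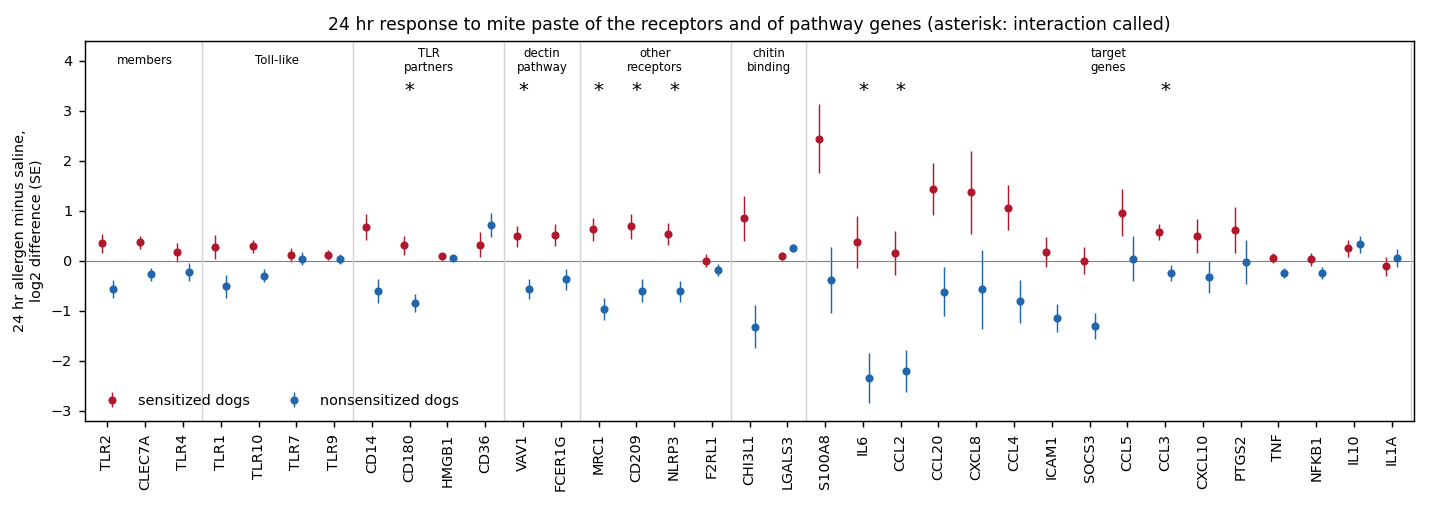
Allergen minus saline difference in log2 level at 24 hr in sensitized and in nonsensitized dogs for the 3 receptors and the 32 measured pathway genes, with SE. An asterisk marks the 8 genes whose interaction was called. TLR2, TLR4 and CLEC7A lie above 0 in sensitized and below 0 in nonsensitized dogs, TLR2 for example at 0.35 and -0.57.

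A biopsy holds many cell types, and with a bulk measurement more cells of a type and more mRNA per cell cannot be told apart. Monocytes and macrophages are cells that express all 3 receptors. To sum a list of markers, each log2 level after variance stabilization was turned back to a linear scale, so the sums are not processed signals. The sum of the 5 measured markers of 10 listed ranged over 1820 to 2800 in untreated skin of sensitized dogs, 2990 to 6370 at their 24 hr saline sites and 4920 to 10500 at their 24 hr allergen sites. In nonsensitized dogs it ranged over 1430 to 3070 in untreated skin, 4350 to 9120 at the 24 hr saline and 3410 to 5510 at the 24 hr allergen sites. Of the 5 markers, CD14, AIF1 and MRC1 were named only by the annotation that the study selected for the 24 hr difference, so the 24 hr pattern of the sum is in part fixed by that choice. CD14 was called at 6 hr in sensitized dogs (1 of 5, against 0.409% of all probes), and MRC1 at 24 hr in nonsensitized dogs (1 of 5, against 0.74%) and for the 24 hr interaction (1 of 5, against 0.972%). The median 24 hr interaction of the 5 markers was 1.19. Of the markers named through RefSeq, CD163 differed between allergen and saline at 24 hr by 0.06 in sensitized and by -0.90 in nonsensitized dogs, and CYBB by 0.82 and by 0.09, with none of these called. Their part in the receptor differences was not tested.

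On the same linear scale, the sum of 3 neutrophil markers of 8 listed, nearly all of it from S100A8, which keratinocytes also express, ranged over 103000 to 218000 at the 24 hr allergen sites of sensitized dogs and over 19100 to 55500 at their saline sites. In nonsensitized dogs the ranges were 12000 to 89600 under allergen and 15400 to 91300 under saline. At 24 hr none of the 3 markers was called in sensitized dogs (0.27% of all probes called), in nonsensitized dogs (0.74%) or for the interaction (0.972%). S100A8 had a 24 hr interaction of 2.82 (SE 0.95, adjusted p by limma 0.119), whereas CXCR2 had 0.05 and ELANE 0.06, which was also the median of the list. Mast cell markers (4 of 7 listed) had a median 24 hr interaction of 0.83, T cell markers (3 of 7) of 0.15 and dendritic and Langerhans cell markers (2 of 6) of 0.25, with none called. Endothelial markers (2 of 5) had 0.24 and fibroblast markers (3 of 5) 0.04, with none called. For these lists too, the share of all probes called was 0.972%. Keratinocyte markers (4 of 8), which define the labelled tissue and summed to between 92600 and 262000 over the arrays, had -0.62, with DSP called lower (1 of 4, against 0.972% of all probes). DSP and KRT15 among them, like LCK among the T cell markers, were named only by the annotation selected for this difference. How far these cells took part in the receptor values was not tested.

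Over the 59 arrays TLR2 and TLR4 correlated with r = 0.85, TLR2 and CLEC7A with r = 0.67, and TLR4 and CLEC7A with r = 0.58. Within groups the values were 0.76, 0.42 and 0.39. Among 1284 other named genes, those most like TLR2 in level over the arrays were AIF1 (r = 0.91), GMFG (0.91), LYN (0.91), CFP (0.90) and APBB1IP (0.89). Those most like TLR4 were LYN (0.82), APBB1IP (0.82), GLIPR1 (0.81), TYROBP (0.81) and TNFSF9 (0.80). For CLEC7A they were GMFG (0.82), BATF3 (0.80), PSMB10 (0.79), GPR65 (0.79) and TIFAB (0.78). Apart from TYROBP, each of these genes was named only by the study's annotation, and the arrays share dogs and slides, so the values are a description without a test.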

How the data were processed

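Per the file headers and the study's methods, Cy3-labelled RNA was hybridized to Agilent canine arrays, and the authors read the scans with Agilent Feature Extraction 10.7.3.1. The deposited intensity is the processed signal of a spot after background subtraction, without scaling between arrays. Values flagged as outliers by the scanner software were dropped, and a spot was kept (76.6% were) if 5 or more arrays of some group had it well above background. Following the methods, signals were normalized by variance stabilization, reimplemented in Python 3.11.15 (scipy 1.17.1, numpy 2.4.6, figures with matplotlib 3.10.9). Spots of a probe were averaged. The 10 group means were fitted with limma 3.58.1 (statmod 1.5.0, R 4.3.3) over 59 arrays, unpaired as in the methods, with 49 residual and 3.55 prior degrees of freedom. In simulated data for the 24 hr interaction, 84% of 2-fold and 98% of 4-fold differences among 200 changed probes of 45698 were recovered, with 6 false calls. The changed probes were all brighter than the median, and the noise was independent between arrays, without effects of dog or slide. These rates therefore do not cover dim probes such as CLEC7A, or differences under 2-fold. Precision is limited by the 6 dogs of a group.

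The labels give the dog of each biopsy. Deviations from the group means correlated with a median r of 0.392 over 116 pairs of arrays of the same dog (lowest -0.007) and of -0.045 over 1595 pairs of different dogs, so a fit with the dog as a block was an alternative. Other alternatives were all 60 arrays, scaling to the 75th percentile, other filters, normexp (offset 50) on spot medians, the slide as a block, separate fits per time point, an unadjusted p below 0.002 and each dog left out.

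Genes were named by identifier through a RefSeq table (1067 identifiers) and the study's annotation (508 more). For TLR2 and TLR4 the brighter probe was reported. Named besides the receptors were the pathway genes called in an allergen comparison, a fixed set of adaptors and macrophage receptors, and the 5 genes with the highest correlation. TLR1, TLR7, TLR9, TLR10 and CD36 were named after their values were seen. The receptors, the lists and the tests were chosen with earlier results of these data known.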

Additional observations from a re-analysis of the deposited data

Results flagged for a closer look

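Of 70 groups of values checked for a dog far from the others, 3 had one, and about 1 in 20 groups is marked in this way by chance. At the 6 hr allergen sites of sensitized dogs, TLR4 was 10.05 in dog 2855, and the next highest dog had 9.32. At the 24 hr allergen sites of sensitized dogs, TLR4 was 9.73 in dog 2853, with 9.42 in the next dog. At the 6 hr allergen sites of nonsensitized dogs, the second TLR4 probe was 6.91 in dog 2704, with 6.44 in the next dog.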

How the results depend on the processing

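For the reported probes of the 3 receptors, 10 other settings and 12 fits without 1 dog gave 459 values for the comparisons at 0 hr and between allergen and saline, of which 438 kept their direction and their side of the limits, 12 passed the limits anew, none fell below them and 9 changed sign. The TLR2 interaction at 24 hr passed with all 60 arrays (1.06), the dog as a block (0.91), normexp (0.82) and the unadjusted p (0.92), ranged from 0.82 to 1.06 over the settings (adjusted p by limma 0.0211 to 0.116) and lay between 0.84 and 1.02 without single dogs, passing only without dog 2704. The CLEC7A interaction at 24 hr passed with all 60 arrays (0.78), a random block for the slide (0.64), the dog as a block (0.63) and the unadjusted p (0.64), ranged from 0.38 to 1.00 (0.0249 to 0.164) and lay between 0.56 and 0.73 without single dogs, passing without dogs 2704 and 2841. That of the second TLR2 probe ranged from 0.29 to 0.92 (0.0368 to 0.3) and passed with the slide as a fixed block (0.69). The early TLR2 difference in sensitized dogs passed by the unadjusted p (0.61). The CLEC7A interaction at 6 hr was -0.01 with scaling to the 75th percentile and between -0.05 and 0.22 without single dogs. The 6 hr differences of nonsensitized dogs without single dogs lay between -0.02 and 0.29 for TLR2, -0.01 and 0.29 for TLR4 and -0.04 and 0.23 for CLEC7A (for the second TLR2 probe, not counted among the 9, -0.02 and 0.13), and the 0 hr difference of CLEC7A between -0.01 and 0.08. The dog as a block changed no other call of these comparisons. The cause of these changes was not tested.

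Against untreated skin, scaling to the 75th percentile turned CLEC7A to -0.02 at 24 hr allergen and -0.01 at 6 hr saline in nonsensitized dogs and to -0.05 at 6 hr saline in sensitized dogs, and it moved the median of all probes at the 24 hr allergen sites of sensitized dogs to -0.1205. With the slide as a fixed block TLR4 at 6 hr saline in nonsensitized dogs was -0.05. Without single dogs, the 6 hr saline differences lay between -0.05 and 0.19 for TLR2 in sensitized dogs and between -0.04 and 0.15 (nonsensitized) and -0.05 and 0.15 (sensitized) for TLR4. Of 20 alternatives each, calls were gained in 5 for TLR2 at the 24 hr allergen sites of nonsensitized dogs (among them the fits without dogs 2800, 2802 and 2847), in 4 for TLR4 at the 6 hr allergen sites of sensitized dogs (among them those without dogs 2839 and 2841), in 2 and 1 for TLR4 at the 24 hr saline sites of sensitized and nonsensitized dogs, and in 1 for TLR2 at the 6 hr allergen sites of nonsensitized dogs (without dog 2802). The rise of CLEC7A at the 24 hr allergen sites was 0.40 with normexp, under 1.5-fold, and that of TLR2 at 6 hr under allergen was 0.58 without dog 2855. Over all probes, the count called for the 24 hr interaction was 447 and ranged from 163 without a filter to 1591 with the dog as a block. By direction it was 285 higher and 162 lower, against 183 and 161 with scaling to the 75th percentile. CLEC7A and the second TLR2 probe are dim, so background limits their differences.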

Other observations

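Specimen 14, the 24 hr allergen site of sensitized dog 2839 that was left out for its degraded RNA, had all 5 receptor probes well above background. In a scaling of all 60 arrays its log2 levels were 9.20 for TLR2, 10.53 for TLR4 and 6.60 for CLEC7A. Its processed signals were 414 for TLR2, 1070 for TLR4 and 51.5 for CLEC7A.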
